A study of Mus musculus with 4 samples.

Results

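The solute carrier (SLC) gene regions described here are the genes of the deposited count table whose symbol has the form Slc, a family number, a and a member number, or Slco and a number. Of 24548 genes in the table, 362 symbols have that form. After 6 pseudogene and opposite-strand names were set aside, 356 were left, and 348 of these held at least 40 reads summed over the 4 libraries. These 348 genes fall into 49 families and lie on 20 chromosomes, with 12 genes on X. All but 1 (Slco6b1, a noncoding RNA gene in the annotation) are protein-coding. The symbol form also takes in 3 genes that are not carriers: Slc9a3r1 and Slc9a3r2, which encode the NHERF scaffold proteins, and Slc4a1ap, which encodes kanadaptin.

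The study used chromatin immunoprecipitation and sequencing (ChIP-seq) of Foxp1 in mammary epithelial cells of wild-type FVB/N female mice aged 10 to 12 weeks (the sample labels write the strain as FBV/N). It holds 4 libraries: Foxp1 ChIP and input DNA from basal cells (column prefix DP), and the same pair from luminal cells (prefix LUM). Input is chromatin that did not go through the antibody step. Each group is 1 library, and no label says how many animals were pooled for it or whether basal and luminal cells came from the same mice. Where Foxp1 was recovered over the genome in each cell type is the question the design addresses, and the reads over SLC genes are compared with that question in view.

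Solute carriers move amino acids, sugars, ions, metals, nucleotides, lipids and drugs across the plasma membrane and the membranes of organelles, mostly by facilitated diffusion or by coupling to an ion gradient. In the mammary gland, luminal cells take up glucose, amino acids, phosphate, iodide and zinc from blood for milk, while basal cells form the contractile outer layer that touches the basement membrane. Foxp1 is a forkhead transcription factor, most often described as a repressor, and forkhead proteins bind DNA through a short motif with the core TGTTT.

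Values are raw reads per gene region, which the authors counted, over an extent that no source used here gives. The 348 regions held 57006 of 3772902 ChIP and 46854 of 3080114 input reads in basal cells, and 48169 of 3163948 ChIP and 65427 of 4201459 input reads in luminal cells, a share of 1.51% to 1.56% of each library. The median member had 160, 143.5, 135.5 and 196.5 reads in the same order. Ratios of ChIP over the input of the same cells were scaled with TMM factors over the 23128 genes with 40 or more reads. Called higher or lower means a ratio at least 1.5-fold from 1 whose exact 99% interval, computed from the 2 counts, leaves out 1. For the median member such an interval spans the ratio divided and multiplied by 1.35 in basal and by 1.34 in luminal cells. With 1 library per group these intervals cover counting error only, so no difference was set against a spread between animals, no p-value is given, and no control antibody was analysed here. Of 10 basal marker genes 5 were higher in basal than luminal cells in the difference between cell types, among them Krt5, Krt14 and Cnn1, and none was lower. Over all genes tested 3.72% were higher and 4.16% lower in that difference. Of 12 luminal markers, Krt8, Gata3 and Epcam were called higher in luminal ChIP, but Epcam and Cd24a were also called in basal ChIP. In the difference between cell types only Prlr of these 12 was called higher in luminal cells. Their median log2 difference was 0.03, so the luminal markers as a set did not separate the cell types on that measure. Fibroblast, endothelial, leukocyte and adipocyte markers (19 genes) had no member called higher in either ChIP, with Dcn and Itgam lower in basal and Plin1 lower in luminal ChIP. The shares of all genes tested were 4.24% higher and 4.06% lower in basal ChIP, and 1.5% and 2.13% in luminal ChIP. At such shares, no higher call among 19 genes does not set these markers apart from other genes.

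The promoter windows below run from 250 bases before to 50 after an annotated start. They are shown because members called higher and those called lower in basal ChIP differed in median CpG count, 23 against 12. Members called in neither cell type had a median of 14, close to that of the members called lower. They are RefSeq sequences of build GRCm38.p6, the assembly of mm10, and capitals mark each CpG dinucleotide. The first 4 belong to genes called higher in basal ChIP: Slc38a2 (chr15:96699679-96699978, reverse strand), Slc16a1 (chr3:104638414-104638713, forward strand), Slc39a1 (chr3:90247942-90248241, forward strand) and Slc25a3 (chr10:91123918-91124217, reverse strand). The last pair, Slc3a1 (chr17:85028097-85028396, forward strand) and Slc22a3 (chr17:12507655-12507954, reverse strand), were called lower there.
Slc38a2: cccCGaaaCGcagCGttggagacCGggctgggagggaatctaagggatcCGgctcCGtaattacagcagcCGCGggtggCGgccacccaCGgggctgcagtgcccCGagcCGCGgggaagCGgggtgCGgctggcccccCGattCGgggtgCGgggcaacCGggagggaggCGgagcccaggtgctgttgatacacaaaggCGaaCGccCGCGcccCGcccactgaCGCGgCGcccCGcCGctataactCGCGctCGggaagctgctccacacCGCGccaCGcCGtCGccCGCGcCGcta
Slc16a1: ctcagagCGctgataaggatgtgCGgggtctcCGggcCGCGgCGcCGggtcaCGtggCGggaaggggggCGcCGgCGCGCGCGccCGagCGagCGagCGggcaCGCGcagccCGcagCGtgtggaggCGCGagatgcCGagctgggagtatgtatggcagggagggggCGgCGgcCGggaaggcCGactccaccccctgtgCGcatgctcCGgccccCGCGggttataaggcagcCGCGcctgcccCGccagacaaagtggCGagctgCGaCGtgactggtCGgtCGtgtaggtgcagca
Slc39a1: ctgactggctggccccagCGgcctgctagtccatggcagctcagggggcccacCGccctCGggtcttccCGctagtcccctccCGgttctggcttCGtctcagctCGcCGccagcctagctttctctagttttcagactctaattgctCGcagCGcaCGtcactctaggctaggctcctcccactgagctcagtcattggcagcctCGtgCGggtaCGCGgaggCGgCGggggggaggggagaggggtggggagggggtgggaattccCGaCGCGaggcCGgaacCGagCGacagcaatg
Slc25a3: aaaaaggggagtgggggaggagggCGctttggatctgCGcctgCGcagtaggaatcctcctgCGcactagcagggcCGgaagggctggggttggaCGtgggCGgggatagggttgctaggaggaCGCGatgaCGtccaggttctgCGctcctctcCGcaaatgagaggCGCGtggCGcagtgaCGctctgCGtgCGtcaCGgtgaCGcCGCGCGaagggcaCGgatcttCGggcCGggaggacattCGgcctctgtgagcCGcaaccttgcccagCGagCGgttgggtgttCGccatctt
Slc3a1: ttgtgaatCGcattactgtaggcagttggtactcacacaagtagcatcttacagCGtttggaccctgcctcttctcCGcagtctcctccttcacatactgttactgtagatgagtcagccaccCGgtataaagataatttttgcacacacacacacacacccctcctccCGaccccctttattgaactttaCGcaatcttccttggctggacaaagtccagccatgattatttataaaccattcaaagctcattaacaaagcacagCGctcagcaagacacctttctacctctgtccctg
Slc22a3: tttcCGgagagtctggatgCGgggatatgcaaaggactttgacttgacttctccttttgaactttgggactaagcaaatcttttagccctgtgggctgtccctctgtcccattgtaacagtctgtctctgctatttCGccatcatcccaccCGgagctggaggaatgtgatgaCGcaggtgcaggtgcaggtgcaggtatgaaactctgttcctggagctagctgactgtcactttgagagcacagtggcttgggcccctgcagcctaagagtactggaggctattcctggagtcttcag

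The windows of Slc38a2 and Slc16a1 hold 41 and 42 CpG dinucleotides, that of Slc25a3 holds 31 and that of Slc39a1 holds 23. In contrast, Slc3a1 holds 7 and Slc22a3 holds 5. These 6 were picked as examples, and Slc3a1 and Slc22a3 both lie below the median of 12 of the members called lower. The 2 sets overlap: windows of members called higher in basal ChIP hold 2 to 45 CpG dinucleotides and those of members called lower 1 to 23.

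Taken as a family, SLC genes did not stand out from other genes in basal ChIP. Of the 348, 17 were called higher (4.89%), where 4.24% of all genes tested were, and 13 lower (3.74%), where 4.06% of all were. Their median log2 ratio was -0.03, against -0.01 over all genes tested, and 164 of 348 lay above 0. Of all 348, 307 were called in neither cell type. The share called higher among the called members depended on the scaling: it was 56.7% of 30 calls here, 40.7% with total counts and 92.7% with ratios centred on olfactory receptor genes. Calls were repeated under 5 alternatives: total counts, DESeq2 size factors, olfactory receptor centring, both inputs summed as background, and an interval widened by the spread of ratios among olfactory receptors. The single members called are described below by what they transport. In the plot of ratios with their intervals, the highest and lowest members with few reads have the widest bars.

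**Figure D1:**
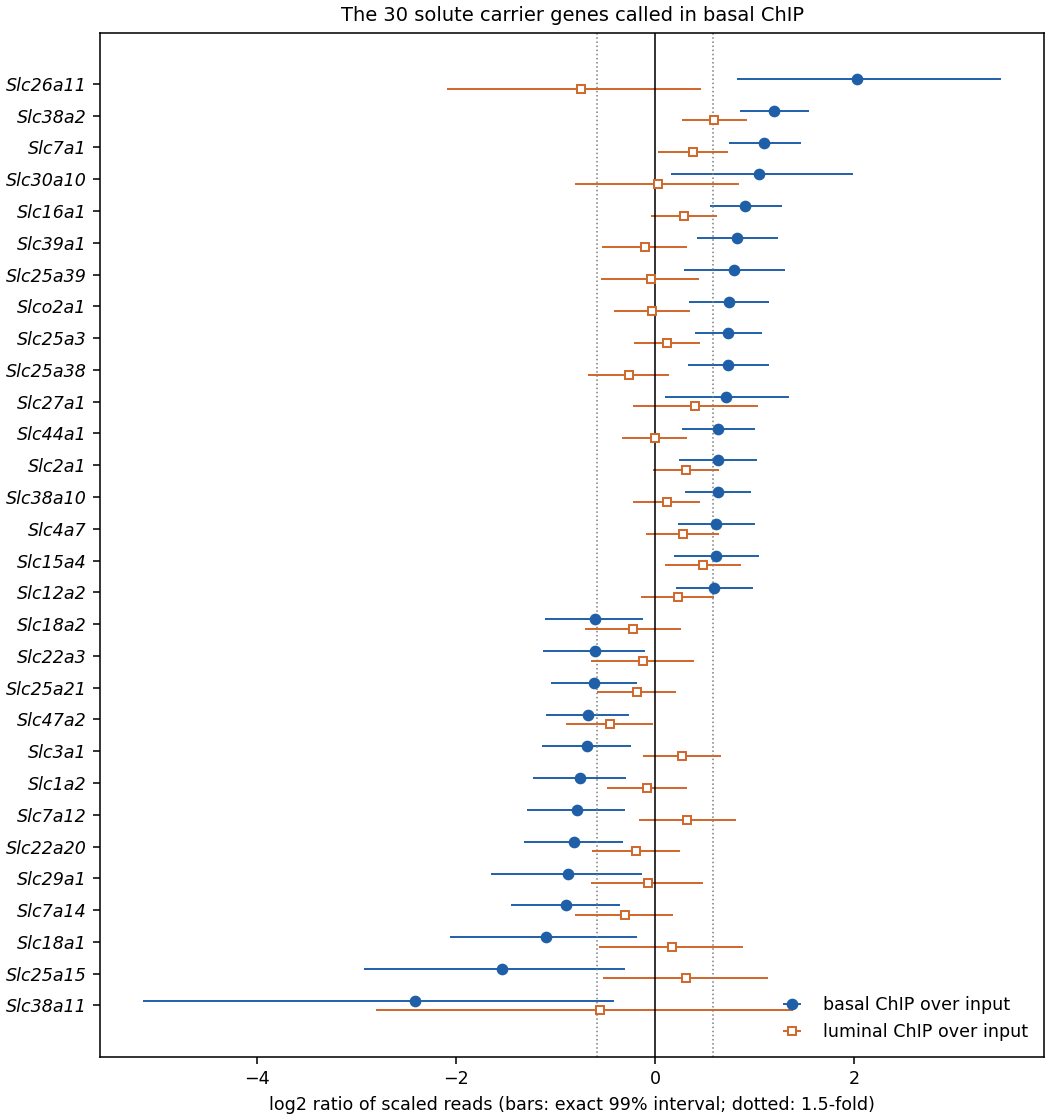
Log2 ratio of TMM-scaled ChIP over input reads (horizontal axis) for the 30 SLC genes called in basal cells (vertical axis), with exact 99% intervals of counting error, filled circles for basal and open squares for luminal cells. All 17 genes called higher in basal cells lie to the right of the 1.5-fold line there, while only Slc38a2 is past it in luminal cells.

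Amino acid carriers included the 2 members with the highest well-counted ratios. Slc38a2 (Entrez gene 67760, chromosome 15, 96687392 to 96699728) encodes SNAT2, a sodium-coupled importer of small neutral amino acids that cells induce when amino acids run short. It had 436 ChIP and 162 input reads in basal cells, and 288 ChIP and 259 input reads in luminal cells. Basal ChIP held the most reads of any SLC gene in that library, and both ChIP libraries exceeded their inputs after scaling. The ratio was 2.28-fold (99% interval 1.80 to 2.92) in basal and 1.51-fold (99% interval 1.21 to 1.89) in luminal cells, and Slc38a2 was the only member called higher in both. With total-count scaling the luminal value of log2 0.60 became 0.56 and its call was lost. Slc7a1 (Entrez gene 11987, chromosome 5, 148327410 to 148399904), the cationic amino acid carrier CAT1 for arginine and lysine, had 391 ChIP and 155 input reads in basal cells, and 223 ChIP and 233 input reads in luminal cells. Its basal ratio was 2.14-fold (99% interval 1.68 to 2.76). In luminal cells the ratio of Slc7a1 was 1.30 (1.02 to 1.67), an interval that leaves out 1, but short of 1.5-fold.

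Slc38a10, a less studied relative of Slc38a2, was the third amino acid carrier called higher, with 366 and 201 reads in basal ChIP and input, and 232 and 291 in luminal ChIP and input, and a basal ratio of 1.55 (1.23 to 1.95). Its call was lost with total counts and with both inputs summed as background. In the other direction, 5 amino acid carriers were called lower in basal ChIP. They were Slc3a1, the rBAT subunit of the kidney cystine transporter (127 and 173 reads in basal ChIP and input, and 175 and 197 in luminal ChIP and input), with a ratio of 0.623 (0.457 to 0.846), and Slc1a2, the glial glutamate transporter, at 0.593 (0.426 to 0.819). Slc7a14, a lysosomal protein of nervous tissue, stood at 0.539 (0.367 to 0.784), Slc7a12 at 0.579 (0.410 to 0.812) and Slc38a11 at 0.189 (0.0283 to 0.752). Slc38a11 rests on 4 ChIP and 18 input reads and is the member exactly at the count minimum. Of the 5, only the call on Slc7a14 was kept under each alternative: Slc3a1 and Slc7a12 lost theirs with olfactory receptor centring and with the inputs summed, Slc1a2 with the centring and Slc38a11 with the widened interval. Slc38a2 and Slc7a1 are known from most tissues, whereas Slc3a1, Slc1a2 and Slc7a14 are known mainly from kidney or nervous tissue. That contrast leaves out the called members Slc38a10, Slc7a12 and Slc38a11, and a link between tissue and ratio was not tested. Over all 41 members of the group the median basal log2 ratio was 0.05, with 3 higher and 5 lower, where 4.24% and 4.06% of all genes tested were.

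**Figure D2:**
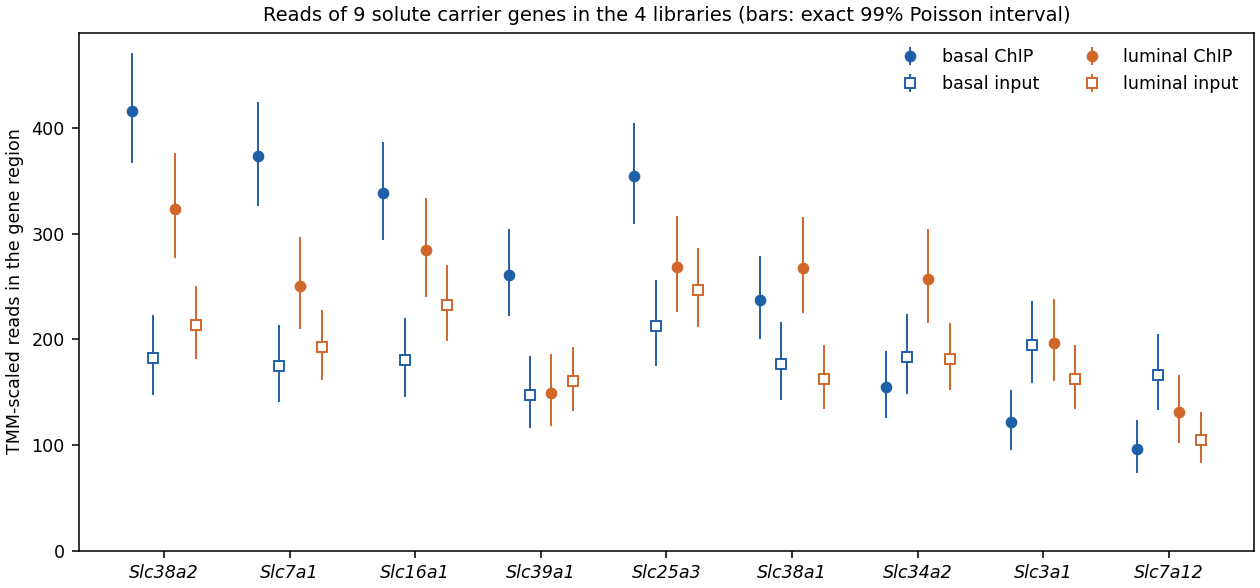
TMM-scaled reads (vertical axis) of 9 SLC genes (horizontal axis) in the 4 libraries, with filled circles for ChIP, open squares for input, 1 colour per cell type and exact 99% Poisson intervals as bars. For Slc38a2, Slc7a1 and Slc16a1 basal ChIP lies above the other 3 libraries, and for Slc3a1 and Slc7a12 it lies lowest.

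Among carriers of fuels and building blocks, single members were called higher in basal ChIP, where 4.24% of all genes tested were. Slc16a1 (Entrez gene 20501, chromosome 3, 104638664 to 104658462), the monocarboxylate transporter MCT1 that carries lactate and pyruvate, had 354 ChIP and 160 input reads in basal cells, and 253 ChIP and 281 input reads in luminal cells. Its basal ratio was 1.88-fold (99% interval 1.47 to 2.42), and its luminal ratio of 1.23 (0.976 to 1.54) did not pass. The other 13 monocarboxylate carriers were not called in either cell type, with Slc16a3, the lactate exporter MCT4, at log2 0.21 in basal and -0.06 in luminal cells. Slc2a1 (Entrez gene 20525, chromosome 4, 119108745 to 119137330), the glucose transporter GLUT1, had 268 ChIP and 147 input reads in basal cells, and 252 ChIP and 276 input reads in luminal cells. That gave 1.55-fold (99% interval 1.19 to 2.03) in basal and 1.24 (0.988 to 1.56) in luminal cells, and it was the only one of 29 sugar carriers called against input. The basal call on Slc2a1 was lost with total counts and with the inputs summed. Basal input held fewer Slc2a1 reads than luminal input for its depth, a log2 difference of -0.46 between the inputs.

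Slc44a1, a choline transporter, had 300 and 164 reads in basal ChIP and input, and 228 and 311 in luminal ChIP and input, and a basal ratio of 1.55 (1.21 to 2.01). Slc27a1, the fatty acid transport protein FATP1, reached 1.64 (1.07 to 2.54) on 112 and 58 reads, and Slc15a4, a histidine and peptide carrier of endolysosomes, 1.53 (1.14 to 2.06). These 3 were the members called in the group of bile acid, lipid, choline, peptide and urea carriers, whose 23 genes had a median basal log2 ratio of -0.11 with 7 above 0. Over all genes tested 4.24% were called higher in basal ChIP and 4.06% lower. Each of the 3 calls was lost under at least 1 other setting.

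Mitochondrial carriers, the Slc25 family of the inner mitochondrial membrane, had 3 genes called higher and 2 lower among 45, where 4.24% and 4.06% of all genes tested were. Slc25a3 (Entrez gene 18674, chromosome 10, 91116574 to 91124046), which imports the phosphate used for ATP synthesis, had 371 ChIP and 189 input reads in basal cells, and 239 ChIP and 299 input reads in luminal cells. Basal ChIP alone stood out, at 1.67-fold (99% interval 1.32 to 2.11). Slc25a38, the glycine importer needed for heme synthesis, and Slc25a39, a glutathione importer, had basal ratios of 1.67 (1.26 to 2.21) and 1.73 (1.22 to 2.47), and both calls were lost with the inputs summed. Slc25a38 lies 1673 bp from Rpsa, a ribosomal protein gene that was called in luminal ChIP (log2 0.69) and not in basal ChIP (0.34). Slc25a15, the ornithine carrier of the urea cycle, was lower on 13 ChIP and 32 input reads, and Slc25a21, an oxodicarboxylate carrier, on 136 and 176. The family median was 0.10 in basal and 0.04 in luminal cells, with 27 and 24 of 45 above 0. The ADP/ATP carrier gene Slc25a5 was not called, with log2 ratios of 0.33 and -0.08.

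Of 33 metal and heme carriers, 2 were called higher in basal ChIP and none lower, where 4.24% and 4.06% of all genes tested were. Slc39a1 (Entrez gene 30791, chromosome 3, 90248190 to 90253613), the zinc importer ZIP1, had 273 ChIP and 131 input reads in basal cells, and 133 ChIP and 194 input reads in luminal cells. It stood at 1.77-fold (99% interval 1.34 to 2.35) in basal and at 0.933 (0.692 to 1.25) in luminal cells. Its neighbour Crtc2, a coactivator of CREB, lies 245 bp away and had a basal log2 ratio of 0.55 that just missed the fold. Slc30a10, a manganese exporter, reached 2.06 (1.12 to 3.96) on 63 and 26 reads, and its call was lost with the widened interval. Neither the iron exporter Slc40a1 (log2 -0.30 in basal, -0.06 in luminal cells) nor the zinc exporters Slc30a2 (0.43, 0.25) and Slc30a4 (0.09, -0.12), which load zinc into milk, were called.

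Ion exchangers and cotransporters were the largest group with 58 genes. Of these, 3 were higher and none lower in basal ChIP, where 4.24% and 4.06% of all genes tested were. Slc12a2, the sodium, potassium and chloride cotransporter NKCC1 (266 and 150 reads in basal ChIP and input, and 200 and 232 in luminal ChIP and input), stood at 1.51 (1.15 to 1.97), and Slc4a7, a sodium bicarbonate cotransporter, at 1.53 (1.17 to 2.0). Both calls were lost with total counts and with both inputs summed. Slc26a11, a sulfate and chloride carrier, had the highest ratio of all members, 4.09-fold (99% interval 1.77 to 11.1), but on 53 ChIP and 11 input reads in basal cells, and 14 ChIP and 32 input reads in luminal cells. It overlaps Sgsh, whose region held 17 to 32 reads per library and was at log2 0.00 in basal cells. Its inputs differed by log2 -1.09, and with both inputs summed its basal log2 ratio went from 2.03 to 1.31. Slc26a11 was no longer among the genes tested when at least 200 reads were asked for.

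Carriers of neurotransmitters and of organic ions and drugs had the lowest group medians in basal ChIP. The group of 34 neurotransmitter and vesicular carriers had a median basal log2 ratio of -0.15, none called higher and 2 lower: Slc18a1 and Slc18a2, the vesicular monoamine transporters, at 0.468 (0.240 to 0.879) and 0.657 (0.465 to 0.923). For the 42 organic ion and drug carriers the median was -0.16, with 14 above 0. Called lower were Slc22a20, an organic anion transporter, at 0.568 (0.401 to 0.798), Slc22a3, an organic cation transporter, at 0.656 (0.460 to 0.933), and Slc47a2, a drug and proton antiporter, at 0.628 (0.470 to 0.836). The 1 exception called higher was Slco2a1 (Entrez gene 24059, chromosome 9, 103007061 to 103096002), the prostaglandin transporter, with 264 ChIP and 134 input reads in basal cells, and 171 ChIP and 237 input reads in luminal cells. Its basal ratio was 1.67-fold (99% interval 1.27 to 2.22), and the call was lost with the inputs summed. Slc29a1, a nucleoside transporter, completed the 13 called lower at 0.545 (0.320 to 0.912). Of these 13 only Slc22a20 and Slc7a14 were called under each of the 5 alternatives. The calls on Slc22a3 and Slc18a2 were lost with olfactory receptor centring, with the inputs summed and with the widened interval. The 15 Slco genes, organic anion transporting polypeptides, had a basal median of -0.26 with 4 above 0. All genes tested had a median of -0.01, with 4.24% called higher and 4.06% lower. Olfactory receptor genes, silent in most tissues, had a basal median of -0.21, and centring on them moved the median of all 23128 genes to 0.20 and that of the 348 carriers to 0.19. With that centring 51 carriers were called higher and 4 lower, so the direction of the group medians depends on the scaling.

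**Figure D3:**
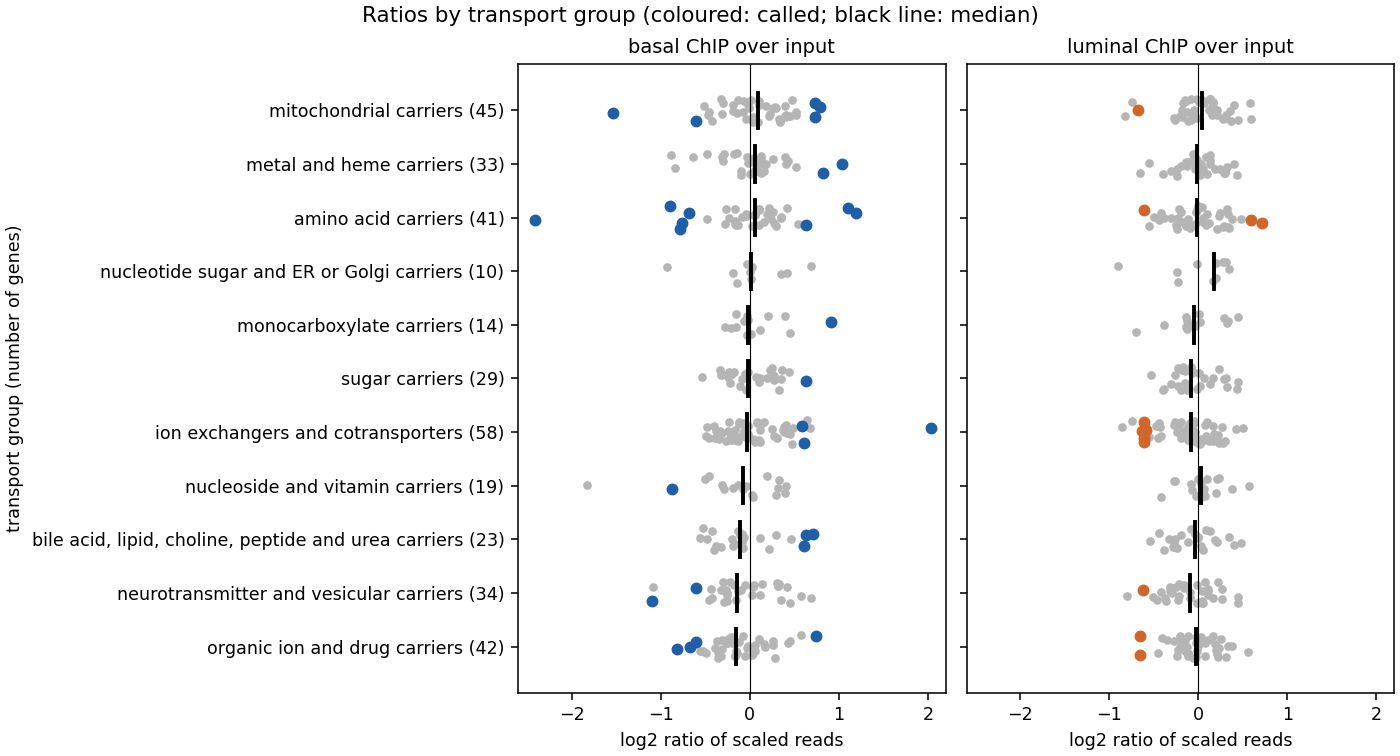
Log2 ratio of scaled ChIP over input reads (horizontal axis) for the 348 SLC genes by transport group (vertical axis, number of genes in brackets), in basal cells at left and luminal cells at right; coloured points were called and black lines are group medians. Basal medians run from -0.16 in organic ion and drug carriers to 0.10 in mitochondrial carriers, and luminal points spread less.

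In luminal ChIP fewer members were called, 2 higher (0.575%, where 1.5% of all genes tested were) and 10 lower (2.87%, where 2.13% of all were). The higher pair were Slc38a2 and its neighbour Slc38a1 (Entrez gene 105727, chromosome 15, 96571418 to 96643438), the glutamine importer SNAT1. Slc38a1 had 248 ChIP and 157 input reads in basal cells, and 238 ChIP and 197 input reads in luminal cells. Its luminal ratio was 1.64-fold (99% interval 1.28 to 2.12) and its basal ratio 1.34 (1.03 to 1.76), so that both lay above 1 and only the luminal one passed. Slc38a1 and Slc38a2 lie 43954 bp apart on chromosome 15. A further gene of the family on that chromosome, Slc38a4, had ratios of 0.715 (0.517 to 0.987) and 1.16 (0.831 to 1.61), neither of them called. Of the members called in luminal cells, 16.7% were higher, against 83.3% of 6 with olfactory receptor centring.

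The 10 called lower in luminal ChIP had log2 ratios within a narrow band, from -0.68 to -0.59, on 72 to 122 ChIP reads. They were Slc25a53, Slc4a8, Slc47a1, Slc17a8, Slc26a3, Slco2b1, Slc13a3, Slc43a3, Slc8a3 and Slc12a1. Slc12a1 is the kidney cotransporter NKCC2, Slc26a3 an intestinal chloride and bicarbonate exchanger, and Slc17a8 a vesicular glutamate transporter. Of these 10, 5 belong to the 58 ion exchangers and cotransporters. Over all genes tested 2.13% were called lower in luminal ChIP. Slc25a53, a mitochondrial carrier on chromosome X, had 187 and 129 reads in basal ChIP and input, and 94 and 205 in luminal ChIP and input, and a luminal ratio of 0.624 (0.446 to 0.862). It was the only one of the 10 still called under each of the 5 other scalings, backgrounds and intervals tried. When the interval was widened by the spread seen among olfactory receptors, 2 of the 10 calls were left, Slc25a53 and Slc4a8.

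The difference between cell types, basal ratio over luminal ratio, was called for 34 members. In 18 it was higher in basal cells (5.17%, where 3.72% of all genes tested were) and in 16 higher in luminal cells (4.6%, where 4.16% of all were), and the median log2 difference was 0.05. Of the 17 genes called higher in basal ChIP, 10 were among the 18. Slc39a1 differed 1.89-fold (99% interval 1.27 to 2.81), Slc25a38 2.0-fold (99% interval 1.35 to 2.95) and Slco2a1 1.70-fold (99% interval 1.17 to 2.47), each with a luminal ratio below 1. Slc38a2 and Slc7a1, which lay above 1 in luminal cells too, differed by log2 0.59 (standard error 0.18) and 0.71 (0.19). Both of these calls, and those on Slc16a1, Slc25a3 and Slco2a1, were lost with the inputs summed and with the interval widened by the spread among olfactory receptors. The call on Slc38a2 was lost with total counts too. A second kind of difference came from members above 1 but not called in basal cells and below 1 in luminal cells. Slc25a53 differed 1.96-fold (99% interval 1.27 to 3.03), Slc47a1, a drug and proton antiporter, 1.88-fold (99% interval 1.23 to 2.86), and Slco5a1 1.81-fold (99% interval 1.23 to 2.67).

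Slc34a2 (Entrez gene 20531, chromosome 5, 53049353 to 53071664), the sodium phosphate cotransporter that moves phosphate in secretory epithelia such as the lactating gland, was among the 16 with the larger ratio in luminal cells. It had 162 ChIP and 163 input reads in basal cells, and 229 ChIP and 220 input reads in luminal cells. The inputs were alike after scaling (log2 0.01), and the ChIP libraries differed. Its luminal ratio was 1.42 (1.11 to 1.82), its basal ratio 0.844 (0.630 to 1.13), and the difference between cell types was log2 -0.75 (standard error 0.21). Widening the interval by the olfactory receptor spread removed the call. Slc3a1 had the best-supported difference on this side, log2 -0.96 (0.23), and was called under each of the 5 alternatives. Slc7a12 differed by -1.11 (0.26), but its 2 inputs differed as well, by log2 0.67, and the call was lost with the inputs summed. What part the inputs had in that difference was not tested. All 3 Slc34 genes lay below 0 in basal and above 0 in luminal cells, although olfactory receptor centring puts Slc34a3 (log2 -0.12 and 0.17) above 0 in both. Slc34a1, the kidney phosphate cotransporter, was also called in the difference (log2 -0.64, standard error 0.25), a call kept with total counts and lost under the other 4 alternatives. Slc52a2, a riboflavin transporter, and Slc25a15 had the largest values, -2.30 and -1.82, on 5 and 13 basal ChIP reads.

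**Figure D4:**
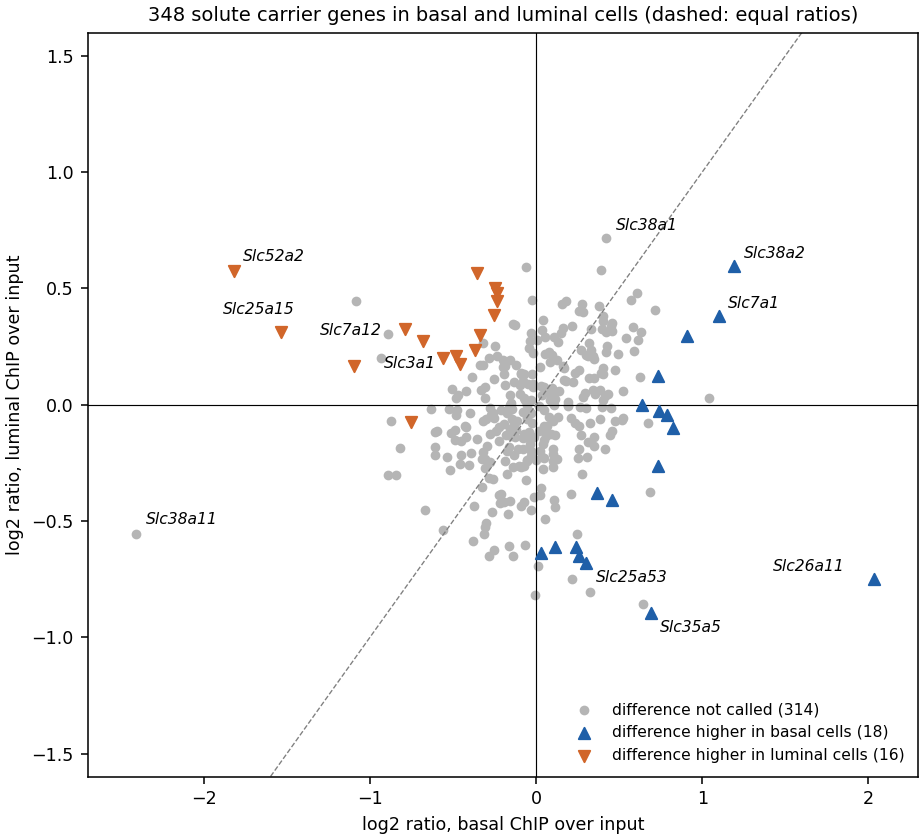
Log2 ratio in luminal cells (vertical axis) against basal cells (horizontal axis) for 348 SLC genes, with triangles for the members whose difference between cell types was called and a dashed line of equal ratios. Slc38a2 and Slc7a1 lie above 0 on both axes, and the 16 genes with the larger luminal ratio all lie left of 0.

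Across the 348 members the basal and luminal ratios were weakly related, with Pearson's r of 0.09 and Spearman's rho of 0.20; over all genes tested the values were 0.21 and 0.25. These are correlations across genes, which are not independent replicates. For the 17 carriers higher in basal ChIP the luminal log2 ratio had a median of 0.12, with 11 of 17 above 0, and the 13 called lower a median of -0.12, with 4 above 0. Between the 2 inputs, which hold no antibody signal, 4 members were called. Slc7a12 and Slco6d1 had more reads in basal input (0.575% of members, where 0.709% of all genes tested were), and Slc22a18 and Slc16a5 in luminal input (0.575%, against 0.463%).

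Carriers of the mammary epithelium were followed as a list of 28 genes, of which 27 were measured and 1, Slc3a2, held no read. In basal ChIP 6 were called higher (Slc38a2, Slc7a1, Slc16a1, Slc27a1, Slc2a1 and Slc12a2) while none was lower, against 4.24% higher and 4.06% lower of all genes tested. The list's median log2 ratio was 0.21, against -0.01 over all genes. This list was drawn up with earlier results of these data known, so its count is a description. Of the 6 calls, those on Slc2a1 and Slc12a2 were lost with total counts and with the inputs summed, and that on Slc27a1 with the widened interval. In luminal ChIP 1 was called, Slc38a2, and the median was 0.17. The phosphate carrier Slc20a1 had 318 reads over 208 in basal and 279 over 283 in luminal cells, log2 0.38 and 0.42, without a call in either. Slc22a5, the carnitine transporter, reached log2 0.58 in basal cells on 340 and 193 reads and just missed 1.5-fold. The sodium iodide symporter Slc5a5 (-0.17 and -0.20), the UDP-galactose carrier Slc35a2 (0.02 and -0.01), which feeds lactose synthesis, and the iron carrier Slc11a2 (-0.31 and -0.56) were not called. Slc39a6, a zinc importer known as an estrogen-responsive gene, stood at -0.89 and 0.30 on 21 to 33 reads per library.

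Carriers that cells induce on amino acid shortage were listed separately (10 genes, 9 measured, most of them also in the mammary list). Basal ChIP had 7 of 9 above 0 and a median of 0.35, with Slc38a2 and Slc7a1 called, and luminal ChIP had 6 above 0, a median of 0.28 and Slc38a2 called. Over all genes tested 48.4% lay above 0 in basal and 49.6% in luminal cells, and 4.24% and 1.5% were called higher. This list, too, was made with results known. Slc1a4, a neutral amino acid exchanger, had a basal ratio of 1.46 (1.12 to 1.91) and Slc6a9, a glycine transporter, of 1.49 (1.14 to 1.94), both short of the fold. Slc7a11, the cystine importer xCT, stood at log2 0.30 and -0.01. Slc7a5, the leucine importer LAT1, held only 18 to 27 reads per library, and its basal interval ran from 0.563 to 3.0, which holds both 1 and the ratio of Slc38a2, so a difference of that size was not detectable at this depth.

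Other membrane transport genes were counted in the same way, beside 4.24% higher and 4.06% lower of all genes tested in basal ChIP, and 1.5% and 2.13% in luminal ChIP. Of 50 ABC transporters none was called higher in basal ChIP and 2 lower (median log2 -0.02), and of 90 potassium channels 1 was higher and 1 lower (median -0.08). Of 40 P-type ATPases 2 were higher and 2 lower (0.03), and of 24 subunits of the V-type proton pump 1 was higher and none lower (0.03). No aquaporin of 11 was called in basal ChIP, and 1, Aqp2, was lower in luminal ChIP. In luminal ChIP 1 ABC transporter was higher and 2 lower, 1 potassium channel was higher and 3 lower, 2 P-type ATPases were higher and none lower, and no V-type pump subunit was called.

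With a gap under 100000 bp counted as neighbouring, 89 members formed 38 clusters. In 18 of these all members lay on the same side of 0 in basal cells, and in 16 in luminal cells. Most clusters are pairs, and 47.1% of all members lay above 0 in basal and 44.5% in luminal cells. Many pairs would therefore share a side without any link. Whether neighbours shared a side more often than other genes was not tested. The largest, 6 organic anion carrier genes from Slc22a19 to Slc22a30 on chromosome 19 (7673075 to 8405111), had basal log2 ratios from -0.37 to 0.26 and luminal ratios from -0.19 to 0.56, with no call on ChIP over input. Slc22a26 and Slc22a28 of that cluster were among the 16 with the larger luminal ratio, calls that were lost with olfactory receptor centring, with the inputs summed and with the widened interval. Slc47a1 and Slc47a2, 540 bp apart, were called in different cell types: Slc47a2 was lower in basal ChIP and Slc47a1 in luminal ChIP, where Slc47a2 also lay below 0 (log2 -0.45). Both calls were lost with olfactory receptor centring and with the inputs summed. With the inputs summed Slc47a2 was instead called lower in luminal ChIP, so the cell type of its call depends on the background. On chromosome 6 the 6 Slco1 genes, in 3 pairs, all lay below 0 in basal cells (log2 -0.36 to -0.12) without a call, and olfactory receptor centring puts some of them above 0. Of the nearest genes of the 17 carriers called higher in basal ChIP, 0 were also called higher there, where 4.24% of all genes were, and Nek10, beside Slc4a7, was called lower (log2 -0.72).

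Promoter CpG content moved with the basal ratio. RefSeq held a promoter window for 268 of the 348 members, and the first listed window was used; in 219 of them its start site lies within 500 bp of the outer end of the annotated gene. The 91 members with 20 or more CpG dinucleotides in the window had a median basal log2 ratio of 0.11, with 8 called higher and 1 lower. Members with 10 to 19 numbered 73 and had a median of -0.01, with 6 higher and 5 lower, and the 104 with 0 to 9 had a median of -0.14, with 1 higher and 5 lower. Over all genes with a window, 456 of 6323 were higher and 147 lower in the highest class, 180 and 126 of 3704 in the middle class, and 102 and 418 of 7405 in the lowest, so the same order was seen across the genome. Across these 268 genes Spearman's rho between CpG count and basal ratio was 0.32 (Pearson's r 0.29), and over the 17432 genes tested with a window it was 0.33, with medians of -0.14, 0.03 and 0.15 from the lowest to the highest class. The 15 called higher in basal cells that have a window held a median of 23 CpG dinucleotides, and the 11 called lower a median of 12. For the 234 members with a window and no call in either cell type the median was 14. In luminal cells rho was 0.14 over members and 0.22 over all genes, with members' medians of -0.12, -0.00 and 0.01 from the lowest to the highest class. Between the inputs rho was -0.18 over members and -0.27 over all genes, so basal input held relatively fewer reads of CpG-rich members than luminal input. What part base composition had in the ChIP ratios was not tested. The exception among the members called higher was Slc4a7, whose window holds 2 CpG dinucleotides.

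**Figure D5:**
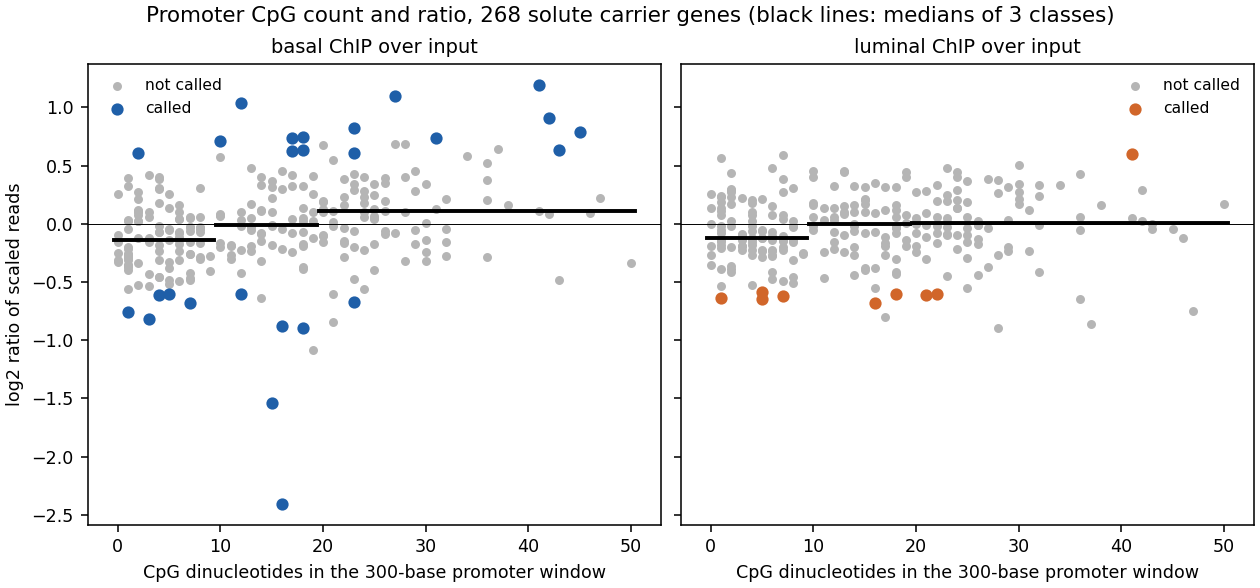
Log2 ratio of scaled ChIP over input reads (vertical axis) against the number of CpG dinucleotides in the promoter window (horizontal axis) for 268 SLC genes, in basal cells at left and luminal cells at right; black lines are medians of genes with 0 to 9, 10 to 19 and 20 or more CpG. The basal medians step from -0.14 to -0.01 and 0.11, and Slc38a2 and Slc16a1 lie at the upper right with 41 and 42.

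Forkhead-type motifs were searched on both strands of the same windows. The letters TGTTTNC, which include TGTTTAC, were found in 40 of 268 members (14.9%) and in 18.4% of all 17432 windows. Members with a match had a median basal log2 ratio of -0.12 and those without one of -0.02, and 3 of the 15 genes called higher in basal ChIP that have a window held a match. TGTTTAC itself was in 4 members (1.49%, against 3.05% of all windows) and TGTTTAT in 13 (4.85%, against 4.0%). None of these was called in basal cells, but 4 and 13 genes are too few to set them apart from others. Across the genome, 531 windows with TGTTTAC had 39 higher and 19 lower basal calls, against 699 and 672 in 16901 without it. The other patterns leaned the opposite way. TGTTTAT had 24 and 35 in 697, against 714 and 656 in 16735, and TGTTTNC 114 and 146 in 3204, against 624 and 545 in 14228. Slc25a38 (chr9:120110132-120110431, forward strand), called higher in basal ChIP, and Slc12a1 (chr2:125152350-125152649, forward strand), called lower in luminal ChIP, are shown with the match in capitals. In Slc25a38 the match lies on the opposite strand, where it reads TGTTTCC and not TGTTTAC.
Slc25a38: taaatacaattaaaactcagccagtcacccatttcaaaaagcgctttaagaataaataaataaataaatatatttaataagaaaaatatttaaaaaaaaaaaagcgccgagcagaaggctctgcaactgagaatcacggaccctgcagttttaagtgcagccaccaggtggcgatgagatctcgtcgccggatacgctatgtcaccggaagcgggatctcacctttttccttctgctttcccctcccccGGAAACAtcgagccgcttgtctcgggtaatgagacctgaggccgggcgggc
Slc12a1: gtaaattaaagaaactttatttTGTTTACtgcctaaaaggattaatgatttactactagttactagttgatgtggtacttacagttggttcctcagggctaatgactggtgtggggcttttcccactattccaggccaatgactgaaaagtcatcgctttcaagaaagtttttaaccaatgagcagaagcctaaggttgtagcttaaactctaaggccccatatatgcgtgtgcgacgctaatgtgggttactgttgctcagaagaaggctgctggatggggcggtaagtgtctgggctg

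Other letter patterns were searched as well. The E-box CACGTG was in 12.7% of members' windows (8.17% of all), with a median basal log2 ratio of 0.05 with and -0.04 without it. The AP-1 letters TGANTCA were in 7.46% (7.42% of all), with medians of -0.02 and -0.03, and CCAAT in 35.1% (38.6% of all), with medians of 0.00 and -0.04. A match describes letters in a 300-base window and not a bound site.

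The 8 symbols under the count minimum all lie near another gene. Slc3a2, the shared heavy chain of several amino acid exchangers, lies 118 bp from Snhg1 and held no read in any library, as did Slc25a37, a mitochondrial iron importer whose nearest gene lies 4834 bp away, and Slc10a3. Of the others, Slc5a3 held 2 reads, Slc25a29 held 6, and Slc10a7 and Slc26a8 held 37 each, just outside the minimum. Just inside were Slc38a11 with 40, Slc6a16 with 60 and Slc52a2 with 64. The median total was 557.5 reads for the 116 carriers less than 1000 bp from the next gene and 667 in the 112 with none within 10000 bp, where the lowest total was 336. Across the whole table the lowest total of genes with none within 10000 bp was 0. What part a close gene had in the low counts was not tested. With so few input reads, enrichment could not be judged for these 8.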

How the data were processed

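The authors deposited 1 table of raw read counts per gene for 4 libraries, 1 per group, matched here to the samples by column name. Counting with featureCounts and the build mm10 are named in the submitters' processing notes; their versions, the aligner, the counted region and the treatment of duplicate reads were not given in the sources used here. Library totals were 3080114 to 4201459 counted reads. Genes with 40 or more reads over the 4 libraries (23128) were scaled with TMM factors (edgeR 4.0.16, R 4.3.3). Ratios carry exact 99% Clopper-Pearson intervals of the 2 counts, and the ratio of ratios, with 0.5 added to each count, a 99% normal interval. A call needed 1.5-fold and an interval excluding 1; intervals cover counting error only, and reads copied by PCR are not independent molecules. The calling was tested on simulated counts that vary by counting error only, which cannot show how it holds at the wider spread of these libraries.

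The members, the transport groups and the lists were chosen with earlier results of these data known. Named are the members called, the listed mammary and amino acid response carriers, and members needed to describe a neighbour, a family or the count minimum. Gene coordinates and promoter windows came from RefSeq tables of GRCm38.p6, in which all 348 members were found by gene ID. Alternatives were total counts, DESeq2 1.42.0 size factors, centring on 1089 olfactory receptor genes, both inputs summed, an interval widened by the spread of those receptors, and count minimums of 1 and 200. Some members are not reported here by name.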

Additional observations from a re-analysis of the deposited data

Results flagged for a closer look

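The difference between basal and luminal ratios was singled out where it also passed after the interval had been widened by the spread among olfactory receptor genes. The variance of their ChIP and input counts around a common split was 2.29 times the counting variance in basal cells and 2.13 times in luminal cells. The counting variance of each cell type was multiplied by these values. Each group is 1 library, so the difference compares libraries and not animals. Slc26a11 differed by log2 2.70, with 53 ChIP and 11 input reads in basal cells, and 14 ChIP and 32 input reads in luminal cells. Its inputs differed by log2 -1.09, and with both inputs summed the difference was 1.65. Slc25a38 differed by 1.0 and Slc39a1 by 0.92, both called higher in basal ChIP over its input. Slc25a53 (0.97), Slc47a1 (0.91) and Slco5a1 (0.86) were not called in basal ChIP and lay below their input in luminal ChIP. On the other side, Slc7a12 differed by -1.11 and Slc3a1 by -0.96, both called lower in basal ChIP. The inputs of Slc7a12 differed by log2 0.67 and those of Slc3a1 by 0.26.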

How the results depend on the processing

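No paired analysis was possible because each group is 1 library. With DESeq2 size factors and with minimums of 1 and 200 reads, each count of called carriers stayed within 1.5 times its value. With total counts, basal higher calls went from 17 to 11, luminal higher from 2 to 1, and the basal median from -0.0274 to -0.0835. Centred on olfactory receptors, basal calls were 51 higher and 4 lower (from 13), luminal calls 5 higher and 1 lower (from 10), differences 32 higher in basal and 6 higher in luminal cells (from 18 and 16), and calls between inputs 21 (from 4). Medians then became 0.19 in basal cells, 0.0416 in luminal cells and 0.19 for the difference. With inputs summed, basal higher calls were 9, luminal calls 4 higher and 5 lower, and differences higher in basal cells 10; the difference of Slco6d1 changed sign from -0.64 to 0.10, its basal input holding more reads than its luminal one. With the widened interval, basal lower calls were 6, luminal lower calls 2, and differences 6 and 2. The basal higher calls kept under each of these 5 settings were Slc16a1, Slc25a3, Slc26a11, Slc38a2, Slc39a1 and Slc7a1, and the luminal one was Slc38a1. Lower calls kept were Slc22a20 and Slc7a14 in basal and Slc25a53 in luminal ChIP. Depth limits what can be seen: by counting error alone, a ratio under about 1.35 was not told apart from 1 at the median member. The spread among olfactory receptors puts that limit higher, and leaving out a replicate was not possible.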
